A study of Mus musculus with 23 samples.

Results

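The genes described here are 10 members of the SLC7 and SLC3 families of amino acid transporters, chosen by symbol: Slc7a1, Slc7a2, Slc7a5, Slc7a6, Slc7a7, Slc7a8, Slc7a11, Slc7a14, Slc3a1 and Slc3a2. Each was found once in both deposited tables, among 28096 entries for alpha cells and 22412 for tissue. RNA had been sequenced from 23 mouse libraries in a study of tumors that arise from glucagon-producing alpha cells when the glucagon receptor gene, GCGR, is lost. Alpha cells were sorted by flow cytometry from islets of mice labelled Heterozygous GCGR (n = 3) and of mice labelled Homozygous knockout GCGR (n = 5). All 8 alpha cell samples are labelled as treated with tamoxifen, for which the protocol gives 200 mg/kg into the peritoneum for 5 days and islet isolation 14 to 21 days later. Tumors (n = 7) and non-tumor pancreatic tissue (n = 8) both came from mice labelled Homozygous knockout GCGR with treatment none, so the tissue comparison holds no mice with a working receptor. The sources used here do not give the strain, the age, the Cre driver if any, or which animals gave which libraries. P-values therefore measure the spread between these samples, which may be technical.

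SLC7 proteins move amino acids across membranes and fall into branches. The cationic amino acid transporters, here Slc7a1, Slc7a2 and Slc7a14, work as single chains, whereas the light chains, here Slc7a5, Slc7a6, Slc7a7, Slc7a8 and Slc7a11, exchange one amino acid for another and need a heavy chain of the SLC3 family to reach the membrane. Slc3a2, also known as CD98, is the heavy chain of those 5 light chains, and Slc3a1 is that of Slc7a9, a cystine and cationic amino acid exchanger best known from the kidney. Arginine and other amino acids stimulate glucagon release by alpha cells, and glucagon in turn drives amino acid use by the liver.

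The tables hold RPKM values, reads scaled to gene length and to the reads of the library, so levels of different genes can be compared within a library. The alpha cell libraries listed 13124 to 16579 genes above 0, and they fell into a class of 4 with 13124 to 13882 (heterozygous 1 and 2, knockout 1 and 2) and a class of 4 with 16123 to 16579 (heterozygous 3, knockout 3, 4 and 5). Their depth could not be read from the values. In tissue, at least 5905254 to 12032564 reads lay behind the non-tumor libraries and at least 10856319 to 15152918 behind the tumors. All 8 listed alpha cell markers stood at 1 RPKM or more in every alpha cell library and every tumor, where they held 63.2 to 72.0% and 30.4 to 53.3% of the values. Acinar markers, genes of the enzyme-secreting exocrine cells, held 63.2 to 71.8% of the values of non-tumor tissue and 0.938 to 24.0% of those of tumors. The tables were normalised separately, so levels set side by side across them were not tested. In bulk samples fewer cells of a type and less RNA per cell cannot be told apart.

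Slc7a2 was the most abundant of the 10 transcripts in sorted alpha cells. The gene (chromosome 8, 40862396 to 40922308, GRCm38) encodes a cationic amino acid transporter for arginine, lysine and ornithine. It read 147, 196 and 161 RPKM in the heterozygous libraries. In the knockout libraries it read 116, 80.3, 72.1, 76.6 and 49.7 RPKM. Every knockout library lay below every heterozygous one. In non-tumor tissue its lowest value was 0.510, its median 1.40 and its highest 2.24 RPKM, and in tumors these were 26.7, 38.3 and 81.7 RPKM. No tumor reached down to the non-tumor range.

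The other cationic transporters differed in level. Slc7a1 (chromosome 5, 148327410 to 148399904), the widely expressed arginine and lysine transporter, read 0.679, 2.53 and 2.55 RPKM in heterozygous cells and from 0.470 to 6.44 RPKM in knockout cells. In non-tumor tissue its range was 0.795 to 2.07 RPKM and in tumors 1.24 to 6.63 RPKM. Slc7a14 (chromosome 3, 31202858 to 31310378), a lysosomal member of the same branch, read 29.9, 8.51 and 15.1 RPKM in heterozygous cells. It read 16.7, 20.5, 10.4, 11.8 and 13.3 RPKM in knockout cells, within the heterozygous range. Slc7a14 was low in non-tumor tissue, at 0.0593 to 0.919 RPKM with at least 3 to 35 reads per library, and stood at 3.99 to 12.4 RPKM in tumors with at least 319 to 932 reads.

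The heavy chain Slc3a2 (chromosome 19, 8706882 to 8723369) read 40.0, 41.8 and 15.2 RPKM in heterozygous cells. In knockout cells it read 16.0, 6.03, 13.8, 13.3 and 13.5 RPKM, and only knockout library 1 lay above the lowest heterozygous library. It was the most abundant of the 10 in both kinds of tissue, at 27.6 to 49.0 RPKM without tumor and 40.5 to 101 RPKM in tumors. Slc3a1 (chromosome 17, 85028376 to 85064236), the other heavy chain, read 41.0, 18.2 and 10.2 RPKM in heterozygous and 29.3, 6.16, 11.3, 16.3 and 14.8 RPKM in knockout cells, with overlapping groups. In tissue it read 0.245 to 0.632 RPKM in non-tumor libraries and 5.03 to 7.79 RPKM in tumors, with no overlap. Its partner Slc7a9 was listed at 0 in 7 of 8 alpha cell libraries, with 0.057 RPKM in knockout library 3, and reached at most 0.0318 RPKM in tissue. Exons of Slc3a1 share 601 bases, 26.5% of its exon bases, with the neighbouring gene Prepl on the opposite strand. Prepl had medians of 15.9, 22.2, 2.07 and 31.8 RPKM in heterozygous cells, knockout cells, non-tumor tissue and tumors. Without strand, reads in the shared bases cannot be told apart, and their part in the Slc3a1 values was not tested.

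Among the light chains, Slc7a8 led in all 4 groups. The gene (chromosome 14, 54722209 to 54781946) encodes an exchanger of large and small neutral amino acids. It read 84.5, 51.6 and 46.7 RPKM in heterozygous cells and 73.4, 48.4, 28.5, 38.8 and 27.5 RPKM in knockout cells, with overlapping groups. In non-tumor tissue the lowest, median and highest values were 9.90, 13.04 and 17.2 RPKM, and in tumors 15.8, 57.3 and 67.0 RPKM. Tumor 3 was the only tumor within the non-tumor range. Slc7a8 made up 84.7 to 89.6% of the summed light chain level in heterozygous cells, 77.9 to 94.2% in knockout cells, 50.1 to 64.3% in non-tumor tissue against 53.7 to 75.1% in tumors.

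Slc7a5 (chromosome 8, 121881150 to 121907694), the exchanger that brings in leucine and other large neutral amino acids, was far lower. It read 9.02, 9.003 and 4.19 RPKM in heterozygous cells and 1.27, 3.37, 2.14, 3.59 and 2.56 RPKM in knockout cells. All 5 knockout libraries lay below the 3 heterozygous ones. In tissue the groups overlapped, with 3.54 to 7.79 RPKM in non-tumor libraries and 4.24 to 15.8 RPKM in tumors. Non-tumor library 2 held the 7.79 RPKM, and also the highest non-tumor values of Slc3a2, Slc7a6, Slc7a7 and Slc7a1. Its listed immune markers summed to 195 RPKM, against 4.07 to 55.5 RPKM in the other non-tumor libraries. The median log2 level over all tested genes was also highest in non-tumor library 2, at 1.825, against 1.077 to 1.484 in the other non-tumor libraries. The part of immune cells, or of this difference over all genes, in these values was not tested. Slc7a6 (chromosome 8, 106168857 to 106198706) and Slc7a7 (chromosome 14, 54369442 to 54417780) encode exchangers of cationic for neutral amino acids. Slc7a6 read 0.213 to 0.808 RPKM in heterozygous and 0.504 to 3.12 RPKM in knockout cells, and 0.977 to 2.84 against 4.44 to 6.84 RPKM in non-tumor tissue and tumors. Slc7a7 read 0.027 to 2.06 RPKM in heterozygous and 0.031 to 2.83 RPKM in knockout cells, and 0.969 to 2.69 against 3.74 to 6.50 RPKM in tissue. Exons of Slc7a7 share 232 bases with Oxa1l, whose median was 6.62 RPKM without tumor and 14.6 RPKM in tumors.

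Slc7a11 (chromosome 3, 49892526 to 50443614), the cystine and glutamate exchanger that feeds glutathione synthesis, was near 0 throughout. It was listed at 0 in all 3 heterozygous and in 4 of 5 knockout alpha cell libraries, and at 0.003 RPKM in knockout library 3. In non-tumor tissue it ranged from 0 to 0.256 RPKM and in tumors from 0 to 0.269 RPKM, which rest on at least 0 to 7 and 0 to 12 reads per library. A count of 0 allows up to 0.166 RPKM in non-tumor library 7 and up to 0.0643 and 0.0621 RPKM in tumors 2 and 3, by the limit of 3 reads, which covers counting error only.

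The promoters of the leading light chain and of the lowest one are shown because they lie at the extremes of the light chain levels. Each sequence holds the 250 bases before a RefSeq gene start, 5′ to 3′ on the strand of the gene (GRCm38.p6, minus strand, chr14:54781887-54782136 for Slc7a8 and chr3:50443614-50443863 for Slc7a11), with motif matches in capitals:
Slc7a8: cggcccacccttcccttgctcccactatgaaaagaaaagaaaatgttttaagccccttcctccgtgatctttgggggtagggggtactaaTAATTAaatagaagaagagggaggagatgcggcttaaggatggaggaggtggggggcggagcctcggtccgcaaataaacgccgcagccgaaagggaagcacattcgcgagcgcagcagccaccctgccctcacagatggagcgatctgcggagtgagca
Slc7a11: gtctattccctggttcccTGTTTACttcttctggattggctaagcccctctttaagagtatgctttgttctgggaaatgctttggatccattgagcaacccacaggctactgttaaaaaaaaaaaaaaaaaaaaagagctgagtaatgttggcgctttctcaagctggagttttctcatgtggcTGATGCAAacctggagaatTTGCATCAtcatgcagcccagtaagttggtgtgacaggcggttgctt
The 4 motifs below were searched on both strands: TGATGCAA, a composite site of the amino acid response factor ATF4, TGACNNNGC, a core of the antioxidant response element, TGTTTAC, a forkhead site, and TAATTA, a homeodomain site. TGATGCAA occurred on each strand of the Slc7a11 window and in 0.791% of 32851 promoter windows of that length, and TGTTTAC in the same window and in 3.17%. TAATTA, which reads the same on both strands, occurred in the Slc7a8 window and in 4.84%. Of the other members with a window, Slc7a7 held TGATGCAA in 1 of its 5 windows. Slc7a1 and Slc7a6 each held TGACNNNGC in 1 window but not in their other one, and it occurred in 10.2% of all promoter windows. RefSeq windows were matched for 8 of the 10 members, all but Slc7a2 and Slc7a5. A match describes letters and is no evidence of binding.

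**Figure D1:**
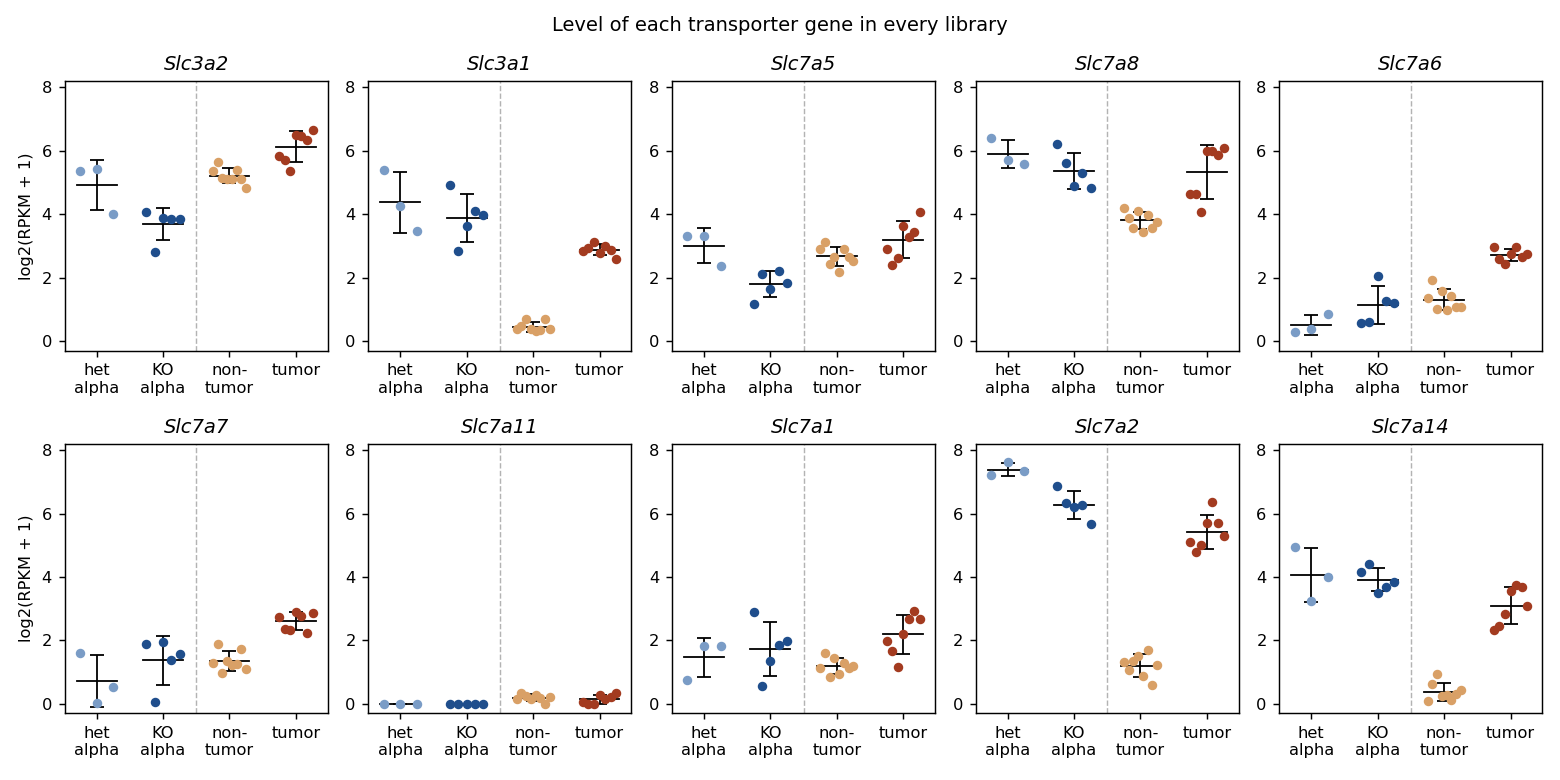
Level of each of the 10 genes in every library on a log2(RPKM + 1) axis; points are libraries, black lines and bars are the mean and SD of a group, and the dashed line separates the tables, which were normalised separately. Slc7a2 stands at 147 to 196 RPKM in heterozygous alpha cells and at 0.510 to 2.24 RPKM in non-tumor tissue, and Slc7a11 lies near 0 in all 4 groups.

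The order of the levels was Slc7a2, Slc7a8, Slc3a2, Slc3a1, Slc7a14, Slc7a5, Slc7a1, Slc7a7, Slc7a6 and Slc7a11 in heterozygous alpha cells. Slc7a2, Slc7a8 and Slc3a2 stood apart from each other by range, as did Slc7a5 from Slc7a1 and Slc7a6 from Slc7a11. The ranges of the other neighbours overlapped. In knockout cells the order was Slc7a2, Slc7a8, Slc3a1, Slc7a14, Slc3a2, Slc7a1, Slc7a5, Slc7a7, Slc7a6 and Slc7a11, and the ranges overlapped between all neighbours except Slc7a6 and Slc7a11. Slc7a2 was nevertheless above Slc7a8 in 5 of 5 knockout libraries. In non-tumor tissue the order began with Slc3a2, Slc7a8 and Slc7a5, each apart from the next by range, and Slc7a7, Slc7a6, Slc7a2 and Slc7a1 followed with overlapping ranges. In tumors Slc3a2 led with 72.2 ± 22.6 RPKM (SD, n = 7), and Slc7a2 (44.7 ± 18.9 RPKM) and Slc7a8 (44.7 ± 22.4 RPKM) could not be ordered, with Slc7a2 the higher in 4 of 7 tumors.

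Knockout alpha cells were compared with heterozygous ones to ask which transporter transcripts differ with receptor genotype. None of the 9 members tested passed the test. Slc7a2 had the lowest p of them, with a mean of 168 ± 25.2 RPKM (SD, n = 3) in heterozygous and 79.0 ± 24.0 RPKM (SD, n = 5) in knockout cells, a ratio of means of 0.471. Slc3a2 fell short of the test too, with means of 32.3 ± 14.9 and 12.5 ± 3.78 RPKM, as did Slc7a5 with 7.40 ± 2.78 and 2.59 ± 0.943 RPKM.

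Of the 10 members 9 passed the filter of 1 RPKM in at least 3 libraries and Slc7a11 did not. With limma on log2(RPKM + 1) and Benjamini-Hochberg adjustment over 10718 genes, none of the 9 rose and none fell at adjusted p under 0.05, where 0.159% of tested genes were called higher and 0.103% lower. At unadjusted p under 0.05, 3 of the 9 lay below heterozygous cells, against 4.91% of all tested genes in that direction and 10.6% in either. Slc7a2 and Slc7a5 had groups that did not overlap, with the knockout lower, as did 3.60% of tested genes, and no member had groups apart with the knockout higher, as did 3.85%. After centring none of the 9 was called either, where 0.215% of tested genes were higher and 0.0933% lower. With array weights, which lower the weight of libraries that fit less well, Slc7a2 alone was called lower (log2 fold change −1.18, limma adjusted p = 0.0415), where 0.476% of tested genes were higher and 0.364% lower. On the same scale the log2 fold change of Slc7a2 was −1.12 (SE 0.29, 95% interval −1.74 to −0.49, limma adjusted p = 0.187). That of Slc3a2 was −1.24 (SE 0.43, interval −2.15 to −0.32, limma adjusted p = 0.329). That of Slc7a5 was −1.21 (SE 0.46, interval −2.21 to −0.21, limma adjusted p = 0.377).

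The other 6 had intervals that crossed 0. Slc7a8 had a log2 fold change of −0.53 (interval −1.31 to 0.26), Slc3a1 of −0.49 (interval −1.58 to 0.61) and Slc7a14 of −0.15 (interval −1.05 to 0.75). Slc7a1 had 0.26 (interval −0.96 to 1.49), Slc7a6 0.64 (interval −0.32 to 1.60) and Slc7a7 0.65 (interval −0.53 to 1.83), each with a limma adjusted p of 0.631 or more; Slc7a6 was under 1 RPKM in all heterozygous libraries and passed the filter through knockout libraries alone. These intervals leave room for changes in either direction. The median log2 fold change was −0.49 over the 9 members tested and 0.0047 over all genes tested.

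Fold changes were also taken within each class of libraries, and the difference between classes was not tested. In the libraries with fewer detected genes (2 against 2) the log2 fold change of Slc7a2 was −0.80 (SE 0.42), that of Slc7a5 −1.67 (SE 0.94) and that of Slc3a2 −1.94 (SE 0.64). In those with more detected genes (1 heterozygous against 3 knockout, the lone library assumed to vary like the others) they were −1.29 (SE 0.29), −0.48 (SE 0.40) and −0.16 (SE 0.28), and none was called in either class. Slc7a2 lay lower in both classes, while Slc3a2, at 15.2 RPKM in heterozygous library 3, differed little from the 13.3 to 13.8 RPKM of the 3 knockout libraries of its class. Acinar markers were highest in heterozygous libraries 2 and 3. The 17 listed summed to 11.8, 3200.0 and 461 RPKM in heterozygous libraries 1, 2 and 3 and to 7.05 to 64.8 RPKM in knockout libraries; Ptf1a was at 0 in all 8, and Cpa1 read 7.46 RPKM in heterozygous library 1 and at most 2.76 in the knockout. Heterozygous library 1 held 147 RPKM of Slc7a2, 9.02 of Slc7a5 and 40.0 of Slc3a2. That is 1 library, and acinar level and genotype cannot be told apart here. With the acinar level as a covariate the log2 fold changes were −0.99 for Slc7a2, −1.34 for Slc7a5 and −1.31 for Slc3a2, and those of Slc7a8, Slc7a14 and Slc3a1 became −1.04, −1.04 and −1.18, none called. The 7 listed immune markers summed to 62.9 RPKM in knockout library 5 and to 0.186 to 12.1 RPKM in the other 7 libraries. The 7 listed ductal markers did not overlap between the genotypes, at 27.0 to 49.7 RPKM in heterozygous and 75.0 to 146.8 RPKM in knockout libraries, with 2 to 4 of the 7 at 1 RPKM or more and Krt19 and Cftr at 0 in all 8. The part of immune and ductal markers in the result was not tested.

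**Figure D2:**
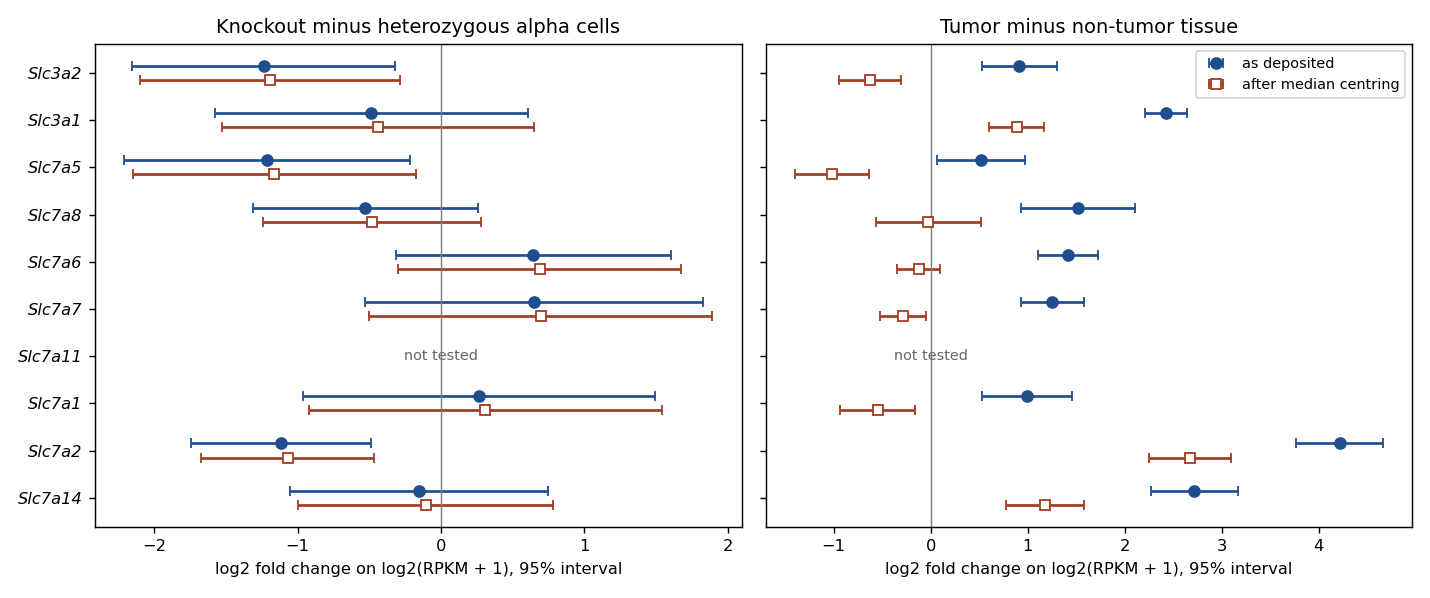
Log2 fold change on log2(RPKM + 1) with its 95% interval for the 9 members tested in each comparison; filled circles are values as deposited and open squares values after libraries were centred on a common median. In alpha cells (left) no member passed the test, with Slc7a2 at −1.12; in tissue (right) 9 lie above 0 as deposited, and Slc7a2, Slc7a14 and Slc3a1 stay above 0 after centring.

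Related genes showed few called changes between the genotypes. Of the other SLC7 genes 1 of 7 was tested, Slc7a4 (log2 fold change −0.92, limma adjusted p = 0.668). Of 28 other amino acid transporter genes and their partners 12 were tested, 1 rose and none fell, where 0.159% of all tested genes rose and 0.103% fell, the shares that also stand beside the lists that follow. The one that rose was Slc38a5, a glutamine transporter, with a log2 fold change of 3.69 (limma adjusted p = 0.000285). Collectrin, Tmem27, a partner of amino acid transporters of the SLC6 family, had 1.06 (limma adjusted p = 0.0862). None of 11 tested genes of the ATF4 amino acid response passed. Ddit4 had −2.27 (limma adjusted p = 0.477) and Atf4 itself −0.77 (limma adjusted p = 0.533). The heterozygous libraries spread widely for Ddit4, at 121 ± 196 RPKM (SD, n = 3). None of 8 tested genes of glutathione synthesis and the NRF2 response passed, with Gclc at −2.20 (limma adjusted p = 0.426). Gclc too spread widely in heterozygous cells, at 51.5 ± 83.0 RPKM (SD, n = 3). Of 7 tested enzymes of arginine and ornithine 1 fell, Arg1, which splits arginine (log2 fold change −2.57, limma adjusted p = 0.0279), and Gatm, which uses arginine for creatine synthesis, had 2.16 (limma adjusted p = 0.175).

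The tissue comparison asks which transporter transcripts differ between a tumor and the pancreas without one, both from receptor knockout mice. Slc7a2 was called higher in tumors under every scaling tried. The mean of Slc7a2 was 1.37 ± 0.557 RPKM (SD, n = 8) without tumor and 44.7 ± 18.9 RPKM (SD, n = 7) with it, 32.7 times higher. Slc7a14 had means of 0.325 ± 0.282 and 8.18 ± 3.55 RPKM, 25.2 times higher, and Slc3a1 of 0.382 ± 0.155 and 6.44 ± 0.865 RPKM, 16.8 times higher. Both lay under 1 RPKM in all 8 non-tumor libraries and above it in all 7 tumors, so they passed the filter of 1 RPKM in 7 libraries through the tumors alone. A higher level in tumors was thus a condition of their being tested, and their calls are given as a description. Slc7a2 read 0.825 and 0.510 RPKM in non-tumor libraries 5 and 7, and Slc7a1 read 0.795 and 0.931 RPKM in non-tumor libraries 3 and 5. Slc7a2 and Slc7a1 therefore also needed tumor libraries to reach the 7 of the filter, though most non-tumor libraries counted toward it.

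On the deposited scale 9 of the 10 members were tested and all 9 rose, where 90.7% of 10220 tested genes rose, and 3.68% fell. A count of rises close to that background is no result about the members. The median gene changed by 1.46 log2 units, and centring all libraries on a common median of tested genes moved fold changes by 1.54. Relative to that shift 3 of the 9 rose (Slc7a2, and Slc7a14 and Slc3a1 that passed the filter through tumors alone), 4 fell and 2 did not pass, where 28.6% of tested genes rose and 36.7% fell. The median over the 9 was 1.42 on the deposited scale and −0.12 after centring, against 1.46 and −0.078 over all genes tested. Tumor and non-tumor libraries did not overlap for 5 of the 9 (Slc7a2, Slc7a6, Slc7a7, Slc7a14 and Slc3a1), as for 76.9% of tested genes on the deposited scale, and none lay apart and lower, as 1.62% did. With quantile normalization 3 of the 9 were called higher and 3 lower, where 32.6% and 29.8% of tested genes were. Centring with a pseudocount of 0.1 gave 3 higher and 3 lower, where the shares of tested genes were 31.3% and 30.5%. Of the members 4 had a mean of at least 5 RPKM and all 4 were called higher on the deposited scale, where 91.4% of such genes were higher and 4.16% lower. Acinar markers, all 16 listed ones at 1 RPKM or more in every non-tumor library, differ between the groups in the same libraries, and the tumor and the loss of acinar tissue cannot be told apart in these samples.

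The cationic transporter Slc7a2 had a log2 fold change of 4.22 (SE 0.21, limma adjusted p = 3.68e-12) and of 2.68 relative to the shift (SE 0.20, limma adjusted p = 5.74e-09). Slc7a14 had 2.72 (SE 0.21), or 1.18 relative to the shift (limma adjusted p = 4.34e-05), and with a pseudocount of 0.1 RPKM in place of 1 these became 4.40 and 2.41. Slc7a1 had 0.99 (SE 0.22, limma adjusted p = 0.000322) on the deposited scale but −0.55 relative to the shift (limma adjusted p = 0.0149). The heavy chain Slc3a1 had 2.43 (SE 0.10, limma adjusted p = 5.97e-13), or 0.89 relative to the shift (limma adjusted p = 1.96e-05), and Slc3a2 had 0.91 (SE 0.18, limma adjusted p = 0.000131) but −0.63 relative to the shift (limma adjusted p = 0.00153). The values for Slc7a14 and Slc3a1, which passed the filter through the tumors alone, are a description only.

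No light chain rose relative to the shift. Slc7a8 had 1.51 on the deposited scale (SE 0.28, limma adjusted p = 4.82e-05) and −0.025 relative to the shift (95% interval −0.57 to 0.51, limma adjusted p = 0.936). Slc7a6 had 1.42 (SE 0.15), or −0.12 relative to the shift (limma adjusted p = 0.307), and Slc7a7 had 1.25 (SE 0.15), or −0.29 relative to the shift (limma adjusted p = 0.0314), a call that was lost at 0.0877 with quantile normalization and at 0.0894 when centring was joined with a pseudocount of 0.1. Slc7a5 had 0.52 (SE 0.22, limma adjusted p = 0.0292), and −1.02 relative to the shift (SE 0.18, limma adjusted p = 0.000102). On the deposited scale the call for Slc7a5 was lost without non-tumor library 3 (log2 fold change 0.48, limma adjusted p = 0.0522), non-tumor library 5 (0.45, 0.0605), tumor 4 (0.45, 0.0655), tumor 6 (0.48, 0.0564) or tumor 7 (0.37, 0.0772). Slc7a11 was under the filter and was not tested.

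Other transporter genes moved in both directions. Of 7 other SLC7 genes 2 were tested; Slc7a3, an arginine transporter, had 1.32 ± 0.272 RPKM in non-tumor tissue against 0.430 ± 0.254 RPKM in tumors (log2 fold change −0.71, limma adjusted p = 6.29e-06), a gene that passed the filter through non-tumor libraries alone, and Slc7a4 had 0.26 (limma adjusted p = 0.0846). Both fell relative to the shift, by 2.25 and 1.28. Of 18 tested other amino acid transporter genes and partners 14 rose and 3 fell on the deposited scale, and 9 rose and 8 fell relative to the shift. Over all tested genes the shares were 90.7% and 3.68% as deposited, and 28.6% and 36.7% relative to the shift, and the counts of the lists that follow stand beside the same shares. Among those that rose on both scales, Tmem27 had 8.82 (7.28 relative to the shift), the aromatic amino acid transporter Slc16a10 had 5.17 (3.63), Slc38a4 had 5.12 (3.58) and the large neutral amino acid transporter Slc43a2 had 4.00 (2.46). Slc16a10 and Slc43a2, with non-tumor means of 0.578 and 0.866 RPKM, and Sesn2 below, with 0.549, were also near or under the filter level without tumor. The glycine transporter Slc6a9 had −2.23 (−3.77) and the glutamine transporter Slc38a3 −2.61 (−4.15), and both fell on both scales.

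Of 15 tested genes of the ATF4 amino acid response 6 rose and 7 fell on the deposited scale (90.7% and 3.68% of all tested genes), and 1 rose and 11 fell relative to the shift (28.6% and 36.7%). The one that rose on both scales was Sesn2, a leucine-binding inhibitor of mTORC1, with 4.01 (2.47 relative to the shift). Asparagine synthetase, Asns, had −1.42 (−2.96) and the serine synthesis enzyme Phgdh −2.62 (−4.16). Of 11 tested genes of glutathione synthesis and the NRF2 response 10 rose and 1 fell on the deposited scale, and 4 rose and 5 fell relative to the shift, with Txnrd1 at 2.91 (1.37) and Gclm at 2.14 (0.60). Of 7 tested enzymes of arginine and ornithine 4 rose and 1 fell on the deposited scale, and 1 rose and 5 fell relative to the shift. The one that rose on both scales was ornithine aminotransferase, Oat (2.05, or 0.51 relative to the shift), and Gatm fell on both (−1.10, −2.64).

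The share of each gene in the summed RPKM of the 10 is free of any factor common to a library, and was not tested. Slc3a2 took 53.8 to 64.9% of the sum in non-tumor tissue, 31.2 to 39.9% in tumors, 5.94 to 12.8% in heterozygous and 3.64 to 10.6% in knockout alpha cells. Slc7a2 took 0.911 to 3.20%, 15.2 to 29.4%, 41.4 to 62.8% and 39.0 to 49.5% in the same order. The shares of both genes were apart between tumors and non-tumor tissue and overlapped between the genotypes. Slc7a8 took 17.0 to 25.5% in non-tumor tissue, 13.6 to 26.6% in tumors, 15.7 to 23.9% in heterozygous and 19.6 to 29.2% in knockout cells, so that its share overlapped in all 4 groups. The summed level of the 10 ranged from 256 to 354 RPKM over heterozygous libraries and from 128 to 263 RPKM over knockout ones, and 50.4 to 80.3 RPKM in non-tumor tissue and 116 to 278 RPKM in tumors.

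**Figure D3:**
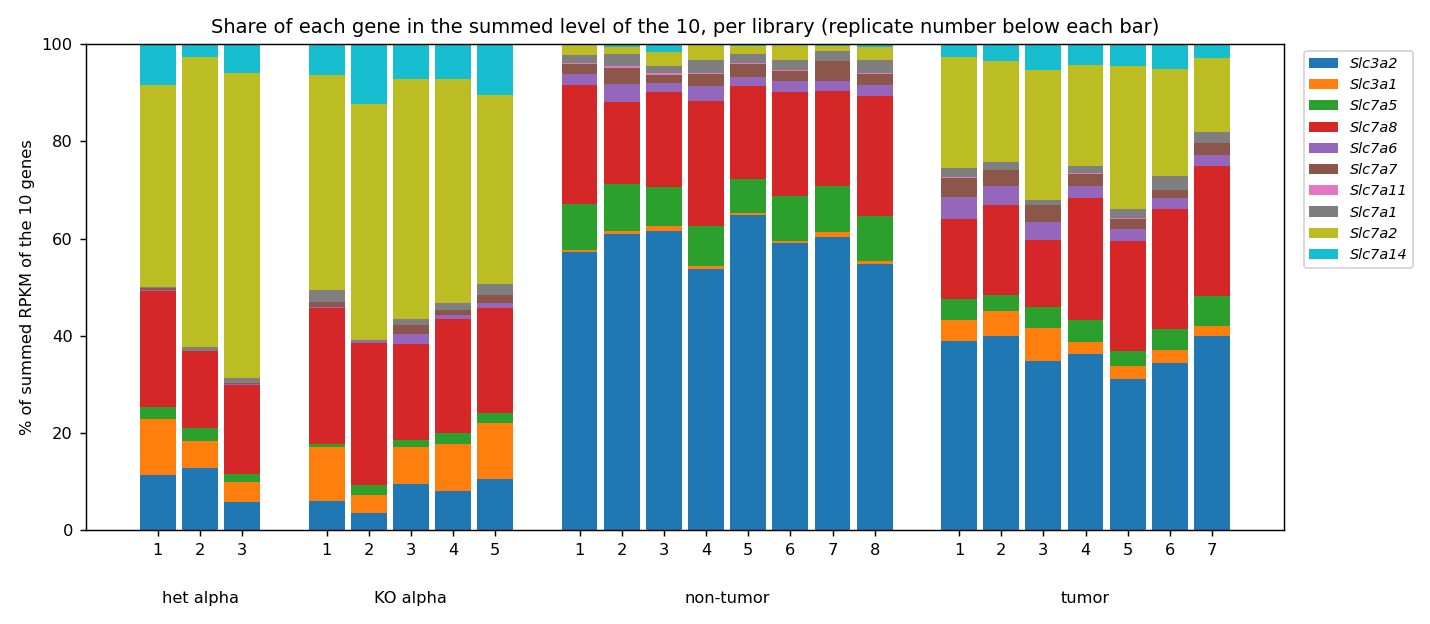
Share of each gene, in percent of the summed RPKM of the 10 genes, in each of the 23 libraries; every bar is 1 library with its replicate number below, and colours are genes. Slc7a2 takes 39.0 to 62.8% in alpha cells, Slc3a2 takes 53.8 to 64.9% in non-tumor tissue, and tumors hold 15.2 to 29.4% of the former and 31.2 to 39.9% of the latter.

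Ratios within a library gave the same picture per heavy chain. The ratio of Slc7a2 to Slc3a2 was 0.0151 to 0.0552 in non-tumor tissue against 0.381 to 0.942 in tumors, with no overlap. In alpha cells it spanned 3.66 to 10.6 for the heterozygous and 3.69 to 13.3 for the knockout genotype, with overlap, although both genes were lower in the knockout by their means. The ratio of Slc3a1 to Slc3a2 was 0.00648 to 0.0186 in non-tumor tissue against 0.0501 to 0.193 in tumors, and 0.434 to 1.02 in heterozygous and 0.817 to 1.83 in knockout cells. The ratio of Slc7a8 to Slc3a2 was 0.278 to 0.475 in non-tumor tissue against 0.390 to 0.727 in tumors, with overlap, and that of Slc7a5 to Slc3a2 was 0.106 to 0.171 and 0.0826 to 0.157. The 5 light chains summed to 1.46 to 3.43 times the Slc3a2 level in heterozygous cells, 2.48 to 8.68 times in knockout cells, 0.476 to 0.738 times in non-tumor tissue and 0.723 to 0.976 times in tumors.

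**Figure D4:**
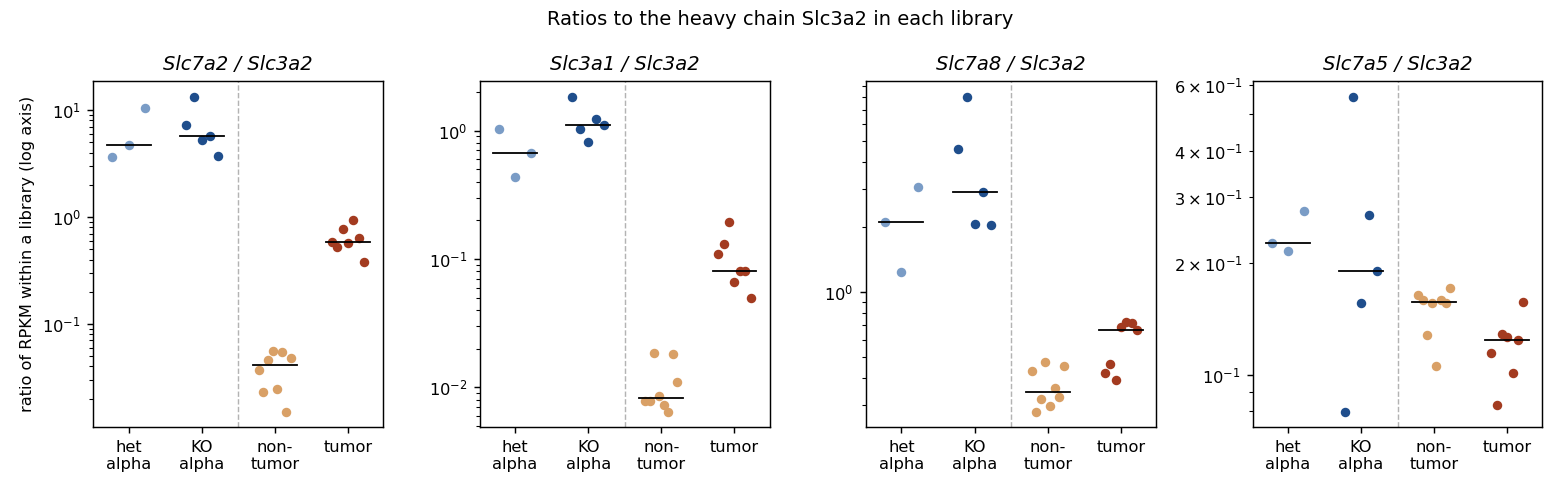
Ratio of the RPKM of 4 genes to that of the heavy chain Slc3a2 within each library, on log axes; points are libraries, black lines are group medians, and the dashed line separates the tables. Ratios of Slc7a2 and Slc3a1 are apart between non-tumor tissue and tumors, while those of Slc7a8 and Slc7a5 overlap.

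The 7 tumors differed from each other most in Slc7a1, Slc7a8, Slc7a5, Slc7a14 and Slc7a2. Slc7a8 read 23.8, 23.8, 15.8, 62.1, 63.1, 57.3 and 67.0 RPKM in tumors 1 to 7, so that tumors 4, 5, 6 and 7 were high and tumors 1, 2 and 3 low. Slc3a2 read 56.8, 51.3, 40.5, 90.2, 86.7, 79.7 and 101 RPKM, with the same 4 tumors high. Slc7a5 read 6.49, 4.24, 5.21, 11.4, 8.77, 9.85 and 15.8 RPKM, and Slc7a2 33.01, 26.7, 31.1, 51.4, 81.7, 50.8 and 38.3 RPKM, again with tumors 4, 5, 6 and 7 above the others. The same held for Slc7a1, Slc7a14 and, at trace levels, Slc7a11, but not for Slc7a6, Slc7a7 or Slc3a1. Those 4 tumors stood above the other 3 for 34.1% of tested genes and below them for 6.12%, and their median log2 level over tested genes was 2.89 to 3.09 against 2.74 to 2.81. Because the split was noticed in these values, no test was made of it. Slc7a6 and Slc3a1 varied least, with the highest tumor at 1.54 and 1.55 times the lowest, whereas Slc7a1 varied 5.33 times and Slc7a8 4.24 times. The acinar markers held 9.75, 1.26, 6.57, 6.72, 0.938, 10.2 and 24.0% of the values in tumors 1 to 7, with high and low values among the 4 tumors and among the 3. Of the other listed marker sets, the ductal and the fibroblast and mural sums followed the split. The alpha, beta, delta, endothelial, immune and proliferation sums overlapped between the 4 tumors and the 3. The 7 ductal markers summed to 204, 258 and 186 RPKM in tumors 1 to 3 and to 1171, 306, 591 and 659 RPKM in tumors 4 to 7, and the 8 fibroblast and mural markers to 214, 121 and 49.6 RPKM against 452, 258, 269 and 583 RPKM. Krt19 was at most 0.894 RPKM in tumors 1 to 3 and at least 1.28 in the others, and Col1a1 at most 37.2 and at least 53.0 RPKM. Cftr overlapped, at 0.0396 RPKM in tumor 1 and 0.0216 RPKM in tumor 5, and Pdgfrb read 4.69 RPKM in both tumor 1 and tumor 6. Their part in the spread of the members was not tested.

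**Figure D5:**
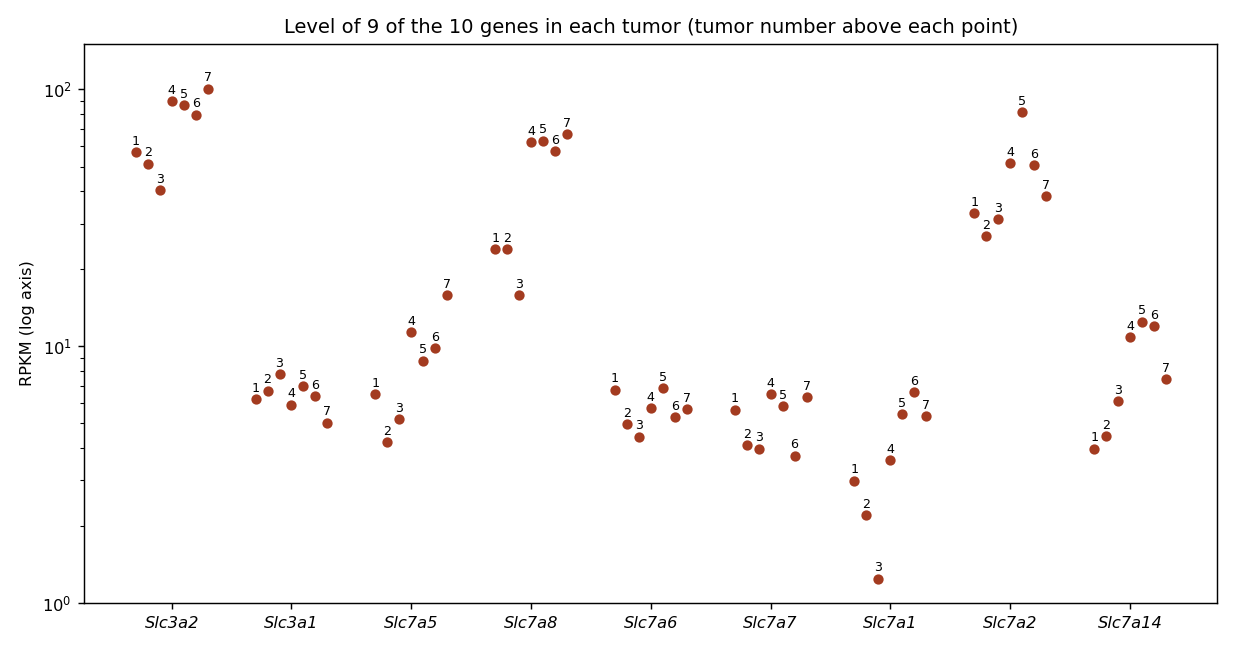
RPKM of 9 of the 10 genes in each of the 7 tumors on a log axis, with the tumor number above each point; Slc7a11, at 0 to 0.269 RPKM, is left out. Tumors 4 to 7 lie above tumors 1 to 3 for Slc3a2, Slc7a5, Slc7a8, Slc7a1, Slc7a2 and Slc7a14.

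The genes whose deviations from the group means were most like those of a member were sought over the 15 tissue libraries, on centred log2 values and as a description without a test. Slc7a8 was most alike to Mtmr9 (Pearson r = 0.951) and Mansc1 (r = 0.945), Slc7a5 to Smpdl3a (r = 0.939) and Eef2k (r = 0.909), and Slc7a2 to Rabgap1 (r = 0.919) and Fyco1 (r = 0.904). Slc3a2 was most alike to Ankrd40 (r = 0.903) and the isoleucyl-tRNA synthetase gene Iars (r = 0.866), and Slc3a1 to Celf4 (r = 0.919). These are the highest values among the 10220 tested genes after predicted genes and entries with only an identifier were left out. The libraries share the tumor spread described above, so high values arise readily. Slc7a6 and Slc7a7 had the lowest such maxima, 0.864 with Taf1d and 0.807 with Ints14.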

How the data were processed

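Values in the 2 deposited tables were taken as RPKM made by the authors. The header states no unit; RPKM fits because columns are not whole, have unequal sums and, in tissue, rise in steps that shrink with exon length (Spearman rho −0.659 over 16235 genes). Per the submitters' processing notes, CASAVA 1.8, GSNAP and GRCm38 were involved, with no roles stated. Per the labels' protocols, RNeasy and TruSeq RNA kits were used. The counter, annotation and strand setting are not stated. In tissue, steps gave whole reads within 0.01 of a read for 16420 genes; these reads are lower bounds. Columns with no library numbered 0.

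Tests used log2(RPKM + 1), which understates changes of low genes, for genes at 1 RPKM or more in 3 (alpha cells) or 7 (tissue) libraries. Two-sided p-values from limma-trend (limma 3.58.1, R 4.3.3) were adjusted by Benjamini-Hochberg over all genes tested and called at 0.05; the fit was tested on simulated data. Positions are from GENCODE on GRCm38. Other steps ran in Python 3.11.15 (pandas 2.3.3, numpy 2.4.6, scipy 1.17.1; figures with matplotlib 3.10.9). The members and gene lists were chosen with earlier results of these data known. Named genes are the members, list genes of lowest p or past the test, though not every one, and the genes most like each member. A planned count test on reads recovered in tissue was not run.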

Additional observations from a re-analysis of the deposited data

Results flagged for a closer look

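In groups of 4 to 10 libraries, 30 sets of values (10 genes in 3 groups) were searched for a library apart from the rest. There were 3 found, all in knockout alpha cells. Chance gives about 1 in 20 sets, so some are expected among 30. Slc3a2 read 6.03 RPKM in knockout library 2 against 13.3 to 16.0 RPKM in the other 4. Slc7a7 read 0.031 RPKM in knockout library 2 against 1.63 to 2.83 RPKM in the other 4. Its gap was 0.714 of the log2 range against a limit of 0.71. These findings for Slc3a2 and Slc7a7 share knockout library 2 and are not independent. Slc7a11 read 0.003 RPKM in knockout library 3 and was listed at 0 in the other 4. With 4 values at 0 any value above 0 stands apart in this way, so the Slc7a11 case carries no information.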

How the results depend on the processing

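In alpha cells, of the alternatives run, array weights alone changed the count of called members, to 1 lower (Slc7a2). Array weights also turned Slc3a1 to 0.078. The libraries with fewer detected genes gave Slc7a14 0.18, and those with more gave Slc7a1 −0.096 and Slc3a1 0.41; these class splits, and centring with a pseudocount of 0.1, were chosen after seeing the data. Leaving out 1 library at a time, log2 fold changes ranged from −0.095 to 0.56 for Slc7a1, from −0.56 to 0.29 for Slc7a14 and from −0.93 to 0.020 for Slc3a1, with 0 members called. Slc7a1 turned to −0.095 without heterozygous library 1 and −0.028 without knockout library 1, and Slc7a14 and Slc3a1 turned without heterozygous library 1. In tissue, 9 members were called higher; centring gave 3 higher and 4 lower, quantile normalization 3 and 3, centring with a pseudocount of 0.1 also 3 and 3, and a mean of at least 5 RPKM 4 higher because 4 were tested. For Slc7a1, Slc7a5, Slc7a6, Slc7a7, Slc7a8 and Slc3a2 the log2 fold changes turned to −0.55, −1.02, −0.12, −0.29, −0.025 and −0.63 with centring, to −0.41, −1.06, −0.084, −0.23, −0.078 and −0.58 with quantile normalization, and to −0.62, −1.40, −0.11, −0.32, −0.41 and −1.06 with centring and a pseudocount of 0.1. Leaving out 1 library at a time gave 8 to 9 members called higher. Deviations of same-numbered libraries were little correlated (r 0.00127 to 0.0872 in alpha cells, −0.222 to 0.149 in tissue), which cannot show whether they share an animal or a batch. The numbers were not used as a pairing in the main fits. In alpha cells, libraries 1 and 2 of both genotypes fell in the class with fewer detected genes, and library 3 of both in the other class. With the replicate block, 2 genes were higher and 1 lower in alpha cells (17 and 11 without it), with 0 members called, and 8 members were called higher in tissue, where Slc7a5 had 0.50 (limma adjusted p = 0.0577). In alpha cells, genes called higher and lower numbered 14 and 1 with a pseudocount of 0.1, 0 and 0 without a filter, 28 and 18 with quantile normalization, and 19 and 26 with the acinar covariate. A count test on recovered reads was not run. The depth of the alpha cell table is unknown, and Slc7a11 rests on 0 to 12 reads per tissue library.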
